A study of Mus musculus with 38 samples.

Results

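The comparison described here is that of ribosome bound RNA from Olig2 cells of the adult mouse cortex with total RNA of the cortex. Its members were chosen by the labels alone: the 3 arrays labelled Cortical Oligodendroglia, whose titles name Olig2, and the 5 arrays labelled Cortex and Total RNA, 8 of the 38 arrays of the series. Bound RNA was taken by Translating Ribosome Affinity Purification (TRAP), in which ribosomes tagged in 1 kind of cell are pulled out of a tissue lysate with the messages they carry. The tag is made only where a driver gene is active, and here the driver, Olig2, is known only from the array titles. The mice were of mixed background (c57/bl6j with FVB and Swiss-Webster), the cortex was dissected from adults, and the treatment label gives wildtype for tissue without tumour. Each sample of the cortex was a pool of at least 2 mice. RNA was extracted with Trizol and a Qiagen RNeasy Minelute column, amplified in 2 cycles, labelled with biotin and hybridized to Affymetrix arrays. Bound RNA of the Cnp line (labelled Cortical Mature Oligodendrocytes), of the Pdgfra line (Cortical Oligodendrocyte Progenitor Cells), of cortical astrocytes and of cortical neurons, 3 arrays each, is used to place the Olig2 values. Nothing in the labels says whether the arrays of a group came from separate days or batches. The p-values use 1 spread per gene, shared by all 12 groups of the 38 arrays. They measure only the spread between arrays of a group, mostly of groups other than the 2 compared. The kind of cell and the kind of RNA, bound or total, change together between the 2 groups and cannot be told apart, and neither can fewer cells of a type and less RNA per cell.

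Olig2 is a basic helix-loop-helix factor that is made through the whole oligodendrocyte lineage. Progenitors, which carry the growth factor receptor Pdgfra and the proteoglycan Cspg4, divide in the adult cortex, pass through a short committed stage marked by Gpr17, and mature into cells that wrap axons in myelin, a membrane rich in cholesterol and galactolipids that is held together by proteins such as Mbp, Mag and Cnp. A reporter driven by Olig2 can therefore mark progenitors and myelinating cells at once, and Olig2 is also known from some astrocytes.

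Promoters of the 3 genes that name the reporter lines, and of Mobp, a myelin protein gene that set Olig2 bound RNA apart from both cortex total RNA and Pdgfra bound RNA, are printed as RefSeq has them in GRCm38.p6, from 250 bases before the start to 50 after it. Capitals mark the Sox hexamers ACAAAG and ACAATG, letters bound by Sox10 and its relatives, and the E-boxes CAGCTG and CAGATG, letters bound by basic helix-loop-helix factors such as Olig2, both searched on both strands, so that CTTTGT and CATTGT stand for the hexamers, and CATCTG for an E-box, on the reverse strand. Matches to these motifs cannot overlap one another.
Olig2, chr16:91225300-91225599, plus strand: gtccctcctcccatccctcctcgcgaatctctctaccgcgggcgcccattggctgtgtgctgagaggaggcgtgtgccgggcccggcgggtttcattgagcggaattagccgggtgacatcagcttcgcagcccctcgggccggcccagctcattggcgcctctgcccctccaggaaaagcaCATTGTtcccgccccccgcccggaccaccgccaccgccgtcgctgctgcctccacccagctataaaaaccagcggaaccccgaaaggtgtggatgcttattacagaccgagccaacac
Pdgfra, chr5:75152001-75152300, plus strand: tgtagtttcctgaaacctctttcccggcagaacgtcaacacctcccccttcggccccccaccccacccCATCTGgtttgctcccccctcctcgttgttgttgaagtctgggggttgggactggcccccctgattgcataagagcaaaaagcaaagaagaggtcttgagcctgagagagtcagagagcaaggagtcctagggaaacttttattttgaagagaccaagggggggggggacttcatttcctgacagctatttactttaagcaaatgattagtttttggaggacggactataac
Cnp, chr11:100574689-100574988, plus strand: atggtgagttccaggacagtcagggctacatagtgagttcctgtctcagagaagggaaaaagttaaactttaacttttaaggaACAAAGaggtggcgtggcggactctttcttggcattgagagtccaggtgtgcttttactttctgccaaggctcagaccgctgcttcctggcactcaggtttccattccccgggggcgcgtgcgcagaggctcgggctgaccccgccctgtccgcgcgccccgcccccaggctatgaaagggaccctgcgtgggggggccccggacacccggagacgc
Mobp, chr9:120149492-120149791, plus strand: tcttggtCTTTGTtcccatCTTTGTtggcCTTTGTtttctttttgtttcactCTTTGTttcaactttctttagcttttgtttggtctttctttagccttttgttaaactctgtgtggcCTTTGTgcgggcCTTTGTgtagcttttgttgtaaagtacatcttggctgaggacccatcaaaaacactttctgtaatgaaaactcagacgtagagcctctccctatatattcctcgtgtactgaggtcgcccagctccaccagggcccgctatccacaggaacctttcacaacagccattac
The Olig2 promoter held 1 match, CATTGT, the Pdgfra promoter 1, CATCTG, and the Cnp promoter 1, ACAAAG, while the Mobp promoter held 6 matches, each of them CTTTGT. Among promoters searched but not printed, that of the myelin gene Mog held 0 matches, and those of Mag and Tmem125 held 1 each. The Mobp count thus does not stand for myelin genes in general. Of the 9799 genes tested, 7978 had a promoter in the RefSeq table. A Sox hexamer stood in 19.6% of the promoters of genes higher in Olig2 bound RNA, in 16.7% of those of lower genes and in 18.8% of all 7978. An E-box stood in 24.7%, 24.6% and 24.1% of the same 3 sets. Among the 49 promoters of genes of the lineage lists described below, 15 (30.6%) held a Sox hexamer and 14 (28.6%) an E-box. A match is a description of the letters and not a binding site.

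Values are log2 array signals, here called levels, on 1 scale for all 38 arrays. A level under log2 50 (5.64) is called dim. A gene was called changed where limma's adjusted p was under 0.05 and the group means, each raised to log2 50 where it was lower, differed by at least 1, that is 2-fold. Where 1 mean was dim the fold is a lower bound, written "at least". Of 9799 genes tested, 2185 (22.3%) rose and 2041 (20.8%) fell in Olig2 bound RNA against cortex total RNA, and 4226 (43.1%) changed either way. The median gene differed by 0.07. The levels of the groups did not overlap in 4186 of the 4226 called genes, and in 81.3% of all genes tested (42.8% with all Olig2 arrays higher, 38.5% with all lower). Groups apart, given below for named genes, were thus the common case and add nothing to a call. They were also a condition for naming the largest rises and falls. Changes of at least 16-fold, dim means raised to the limit, numbered 106 upward and 121 downward. The probes of actin at the 3′ end exceeded those at the 5′ end, a sign of RNA quality, by 2.95, 2.45 and 2.68 in Olig2 bound RNA, against 4.99, 5.04, 5.32, 4.70 and 2.80 in cortex total RNA. Cortex total replicate 5 was thus nearest to the bound RNA. With that array alone as the cortex arm, its spread assumed to be that of the other groups, 3734 of the 4226 calls remained and 0 turned to the opposite direction. A call lost in that fit rests on 1 array, and the part of RNA quality in the results was not tested.

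**Figure D1:**
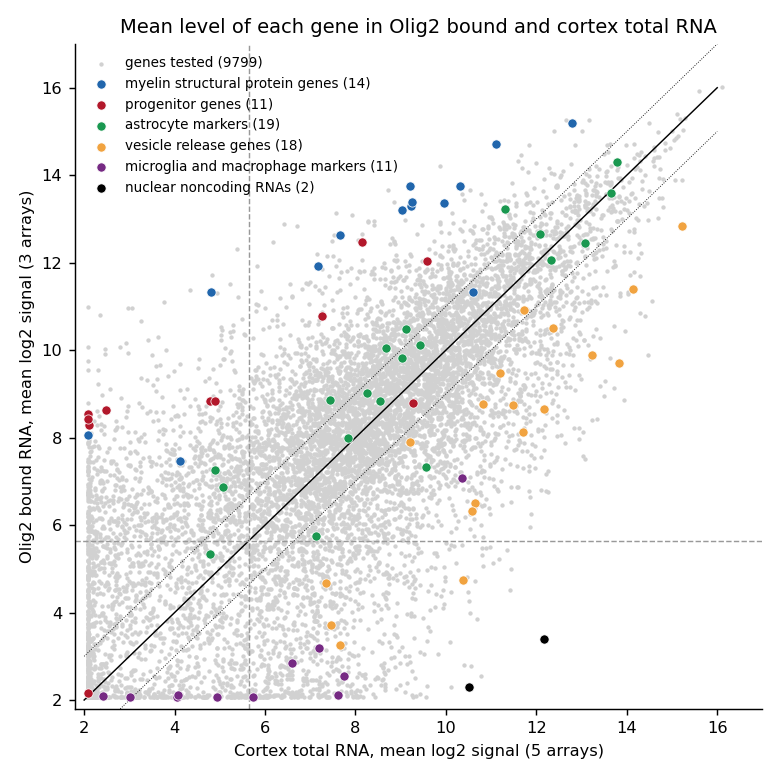
Mean level of each tested gene in Olig2 bound RNA (vertical, log2 signal, 3 arrays) against cortex total RNA (horizontal, log2 signal, 5 arrays), with the gene lists coloured. The solid line marks equal levels, the dotted lines a 2-fold difference and the dashed lines the dim limit of 5.64. Most myelin and progenitor genes lie above the dotted band and most vesicle release genes under it.

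The 3 genes that name the reporter lines rose together. Olig2 had levels of 12.44, 12.46 and 12.51 in Olig2 bound RNA, against 6.21, 6.14, 5.91, 6.03 and 6.63 in cortex total RNA, a difference of 6.29 ± 0.36 (SE, adjusted p = 9.92e-16, limma). Cnp, an enzyme of myelin cytoplasm, had 13.27, 13.39 and 13.21 in Olig2 bound RNA and 9.33, 9.51, 8.73, 9.32 and 9.27 in cortex total RNA, a difference of 4.06 ± 0.40 (SE, adjusted p = 2.4e-10). Pdgfra had 8.79, 8.77 and 8.96 in Olig2 bound RNA, while all 5 cortex total arrays were dim, between 4.72 and 4.91, so that it was at least 9.18-fold higher (adjusted p = 2.4e-09). For all 3 genes the lowest bound array stood above the highest total array. Olig2 bound RNA thus held defining genes of both progenitors and myelinating cells.

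Of 13 lineage transcription factors tested, 10 rose and 0 fell, with a median difference of 2.62 after raising to the dim limit, against 0 over all genes tested. Sox10, the Sox factor of all oligodendrocyte stages, read 10.44, 10.75 and 10.38 in Olig2 bound RNA but 4.94 to 5.22 in cortex total RNA and rose at least 29.5-fold (adjusted p = 2.78e-16). Nkx2-2, a homeodomain factor of differentiating progenitors, rose at least 58.4-fold and Nkx6-2, a homeodomain factor of mature cells, at least 25.3-fold. For these 3 factors every cortex total array lay below every bound array. Sox8 rose at least 19.7-fold, although bound replicate 3, at 9.05, stood below replicates 1 and 2, at 10.49 and 10.29. Myrf, which switches on myelin genes, was already above the dim limit in cortex total RNA and rose 6.15-fold. Olig1, the closest relative of Olig2, read 15.22, 15.22 and 15.35 in Olig2 bound RNA and 12.93 to 13.41 in cortex total RNA, a rise of 4.32-fold. Sox4, Zfp536 and Zeb2 were not called. Sox4 was dim in cortex total RNA and just around the limit of 5.64 in Olig2 bound RNA (5.91, 5.62 and 5.61), and Zeb2 differed by -0.46. Zfp488 was not analysed here, and Sall1 and Prox1 were too dim to test.

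Among progenitor genes, 9 of the 11 tested rose and 0 fell, with a median of 2.90. Lhfpl3, a tetraspan membrane protein found in progenitors, read 10.59, 10.63 and 11.11 in Olig2 bound RNA, against 7.32, 7.12, 7.35, 7.16 and 7.38 in cortex total RNA (11.4-fold, adjusted p = 9.41e-09). Rlbp1, a retinoid carrier also known from Müller glia, read 12.55, 12.45 and 12.40 in Olig2 bound RNA, against 8.01 to 8.36 in cortex total RNA (20.1-fold). Neither gene had overlapping groups. Susd5 rose at least 9.2-fold from a dim level in all 5 total arrays, and Cspg4 at least 7.93-fold. Cspg5, a neural proteoglycan, rose 5.44-fold. C1ql1, a secreted C1q-like protein, and Sapcd2 sat at 2.08 to 2.22 in cortex total RNA and at 8.05 to 8.51 in Olig2 bound RNA. Matn4, a matrix protein, was the most uneven of the list, with 9.38, 9.28 and 6.97 in the bound arrays and 2.08 to 2.09 in the total arrays. The 2 that were not called were Vcan, dim on all 8 arrays, and Ptprz1, a receptor phosphatase, which read 8.79, 8.40 and 9.20 in Olig2 bound RNA and 8.75 to 9.75 in cortex total RNA (difference -0.48 ± 0.37, SE, adjusted p = 0.239). Ptprz1 had a mean of 10.78 in astrocyte bound RNA. Cacng4, Neu4, Megf11 and Xylt1 were not analysed here.

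**Figure D2:**
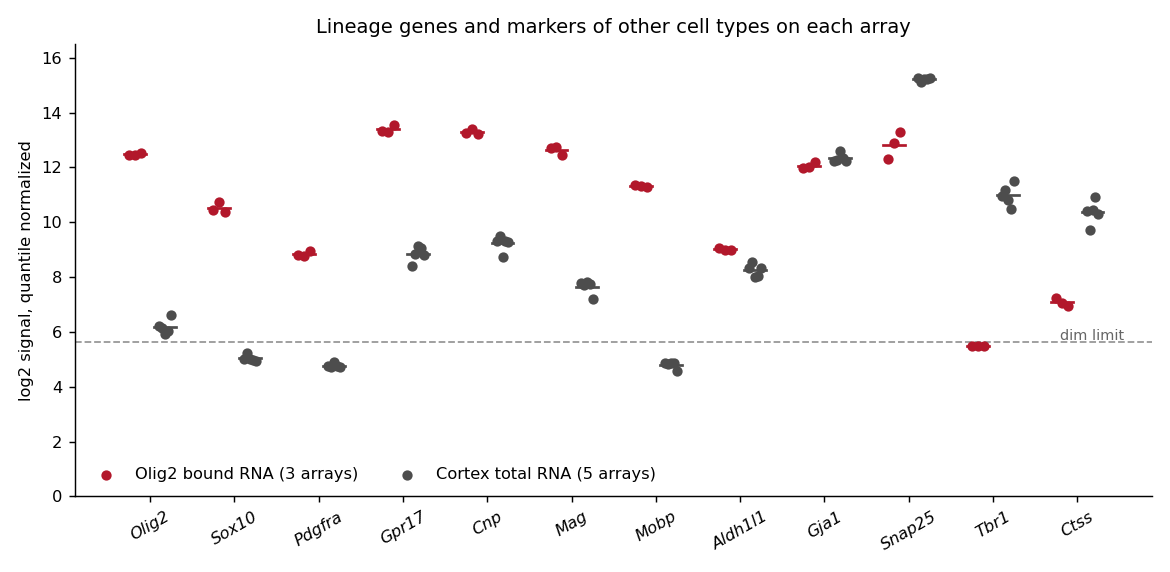
Log2 signal of 12 genes on each array of Olig2 bound RNA and cortex total RNA. Dots are arrays, short lines group means and the dashed line the dim limit of 5.64. Olig2, Sox10, Pdgfra and Gpr17 are higher, and Snap25, Tbr1 and Ctss lower, in Olig2 bound RNA than in cortex total RNA.

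Genes of the committed stage rose in 9 of 10 tested cases, with a median of 2.80, and 0 fell. Gpr17, an orphan receptor that is switched on as progenitors commit, read 13.33, 13.30 and 13.53 in Olig2 bound RNA, against 8.41, 8.84, 9.12, 9.08 and 8.79 in cortex total RNA (23.3-fold, adjusted p = 2.99e-11). Cnksr3, a scaffold protein, rose 23.3-fold as well, and Bmp4, a secreted ligand of the same stage, 18.1-fold. Rras2, a small GTPase, rose 12.7-fold. The bound arrays of these 4 genes stayed above all total arrays. Fyn, the kinase that relays axonal contact to myelin synthesis, rose 6.93-fold and Sirt2, a deacetylase of myelin, 6.98-fold. Enpp6, a choline phosphodiesterase of newly formed cells, rose at least 5.78-fold from a dim level, and Bcas1, a myelin associated protein, had the smallest rise of the list, 2.84-fold. Itpr2 was dim in both groups, with 3.89 to 3.90 in Olig2 bound RNA and 2.45 to 2.48 in cortex total RNA.

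Of the 14 myelin protein genes tested, 13 rose, with a median of 3.83. Mobp, a small basic protein of the compact sheath whose promoter is printed above, read 11.36, 11.33 and 11.29 in Olig2 bound RNA, against 4.88, 4.84, 4.87, 4.86 and 4.58 in cortex total RNA, and rose at least 51.3-fold (adjusted p = 2.15e-12). Mag, the adhesion protein of the innermost wrap, rose 31.6-fold, Pllp, a proteolipid, 26.9-fold, and Mog, on the outer surface, 23.6-fold. None of the 5 total arrays reached a bound array in these 4 genes. Mag was lower in cortex total replicate 5 (7.19) than in replicates 1 to 4 (7.71 to 7.82). Mbp read 15.20 on each bound array and 12.69 to 12.85 on the total arrays, and rose 5.31-fold. Omg alone was not called: it read 11.38, 11.31 and 11.27 in Olig2 bound RNA and 10.26 to 11.02 in cortex total RNA, a difference of 0.71 ± 0.23 (SE, adjusted p = 0.00568), under the 2-fold limit. Its mean was 11.22 in neuron bound RNA and 11.55 in astrocyte bound RNA. Gjb1 and Gjc3, connexins that couple myelin layers and glia, rose at least 5.33-fold and at least 3.56-fold.

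Enzymes that make and turn over myelin lipids rose in 11 of 12 tested cases, with a median of 3.09. Elovl1, which lengthens fatty acids, read 13.02, 13.09 and 12.74 in Olig2 bound RNA, against 8.39, 8.35, 8.52, 8.43 and 7.65 in cortex total RNA (25.6-fold, adjusted p = 8.01e-16). Gal3st1, which adds sulfate to galactocerebroside, rose 23.9-fold, Cers2, a ceramide synthase for very long chains, 20.6-fold, and the phospholipase Plaat3 13.5-fold. For Elovl1 replicate 5 was the lowest total array, and no total array came near the bound ones. Ugt8a, which makes galactocerebroside itself, rose 6.85-fold, and Fa2h, which hydroxylates its fatty acid, 5.91-fold. Arsa, the lysosomal enzyme that breaks sulfatide down, was not called, with 8.87, 8.75 and 8.74 in Olig2 bound RNA and 8.47 to 8.64 in cortex total RNA.

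Cholesterol synthesis did not move as 1 block. Of 11 genes tested, 6 rose and 1 fell, with a median of 1.30, and under spike-in scaling 4 rose and 1 fell. Mvd, which makes isopentenyl diphosphate, read 9.22, 9.52 and 9.01 in Olig2 bound RNA, against 5.84, 5.79, 5.65, 5.85 and 6.27 in cortex total RNA (10.4-fold, adjusted p = 1.51e-11). Mvk, the kinase earlier in the pathway, rose at least 3.79-fold and Dhcr7, which performs the last reduction, 3.81-fold. Cyp51, the lanosterol demethylase, rose 2.96-fold. The bound and total arrays of these 4 genes did not overlap. Fdft1, Sqle, Msmo1 and Nsdhl, which act at and after squalene synthesis, were not called, and differed by 0.15 to 0.37. Hsd17b7, a sterol reductase, read 5.33, 5.31 and 5.32 in Olig2 bound RNA against 6.53 to 6.98 in cortex total RNA and fell at least 2.26-fold, a call lost against cortex total replicate 5 alone. Hmgcs1, Idi1, Fdps and Insig1 were not analysed here.

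Surface, cytoskeleton and metabolic genes known from oligodendrocytes followed. Of 16 surface and adhesion genes, 12 rose and 1 fell, with a median of 2.87. Tmem125, a small membrane protein, had the largest rise of all genes with both means above the dim limit: it read 12.69, 13.02 and 12.92 in Olig2 bound RNA, against 6.52, 6.44, 6.44, 6.86 and 5.79 in cortex total RNA (88.6-fold, adjusted p = 2.41e-09). Jam3, a junction protein, rose 38.2-fold, Efnb3, an ephrin, 32.8-fold, and Gpr37, a receptor of maturing cells, 22.1-fold. Ninj2, a nerve injury adhesion protein, read 10.02, 9.99 and 10.04 in Olig2 bound RNA and 2.26 to 2.79 in cortex total RNA, at least 20.7-fold higher. The bound arrays lay above the total arrays in each of these 5 genes, which was a condition for naming Tmem125, Jam3 and Efnb3. Cntn1, a contactin that neurons also make, was the 1 that fell, with 11.83, 11.53 and 11.69 in Olig2 bound RNA against 12.47 to 13.28 in cortex total RNA (2.21-fold, adjusted p = 0.000331). Cntn1 was not called with arrays centred on their median (-0.88) or with a replicate block (-0.96), where 12 of the list rose and 0 fell.

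Of 14 cytoskeleton genes of oligodendrocytes 11 rose and 0 fell. Pdlim2, which links actin to signalling proteins, rose 69.2-fold, with 12.74, 12.87 and 12.88 in Olig2 bound RNA against 7.29, 6.80, 6.20, 6.88 and 6.40 in cortex total RNA. Ppp1r14a, a phosphatase inhibitor, rose 32.3-fold, the actin severing protein Gsn 20.1-fold and Septin8, a filament protein of the sheath, 15.9-fold. In these 4 genes no total array reached the lowest bound array, which was a condition for naming Pdlim2. Tppp, Map6d1 and Tmod1 were not called, with differences of 0.13, 0.39 and 0.33, and had means of 12.06, 9.81 and 9.13 in neuron bound RNA. Among 13 metabolic, iron and pH genes 10 rose and 0 fell. Car14, a membrane carbonic anhydrase, rose at least 15.6-fold, Adi1, an enzyme of methionine salvage, 13-fold and Trf, the iron carrier transferrin, 9.23-fold. Hapln2, a link protein of nodes of Ranvier, rose at least 5.04-fold, with 7.98, 7.98 and 7.97 in Olig2 bound RNA and 3.19 to 3.20 in cortex total RNA. Fth1, Slc16a1 and Glul were not called. Fth1, the ferritin heavy chain, read 11.46, 12.30 and 12.31 in Olig2 bound RNA and 12.19 to 13.57 in cortex total RNA, so that the groups overlapped.

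Several families rose although their members are not known for 1 glial type. S100 proteins, calcium binding partners, rose in 6 of 8 tested cases and fell in 1, with a median of 3.95. S100a1 read 13.12, 13.22 and 13.09 in Olig2 bound RNA, against 7.51, 7.42, 7.34, 7.46 and 8.15 in cortex total RNA (47.4-fold, adjusted p = 3.48e-17). S100a13 rose at least 47.2-fold, S100a4 at least 19.3-fold and S100b 15.7-fold. S100a10 fell 4.09-fold, with 7.53, 7.23 and 6.55 in Olig2 bound RNA against 8.86 to 9.28 in cortex total RNA. All 5 of these genes had separate groups, and the means of S100a1, S100a4 and S100b in astrocyte bound RNA were 13.58, 9.96 and 12.58. Tetraspanins, membrane organizers, rose in 10 of 15 tested cases and fell in 3. Cd9 rose 68.3-fold, with bound replicate 3 at 10.77 below replicates 1 and 2 at 12.43 and 12.55, and cortex total replicate 5 at 6.66 above the other 4, at 5.49 to 5.80. Cd82 rose at least 67-fold and Tspan15 at least 8.88-fold. Tspan33, Tspan5 and Tspan13 fell, at least 2.72-fold, 4.48-fold and 2.05-fold.

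Outside the lists, the largest rises among genes measured in both groups included Tmem100, a membrane protein downstream of BMP signals in vessels, with 11.25, 11.23 and 11.59 in Olig2 bound RNA against 5.55, 5.88, 5.69, 5.73 and 6.68 in cortex total RNA (43.7-fold). Mdk, the growth factor midkine, rose 34.4-fold, with 11.18, 10.81 and 10.70 in Olig2 bound RNA against 5.57 to 5.88 in cortex total RNA. Neither gene was high in Cnp bound RNA, where their means were 2.70 and 2.08, and both were high in astrocyte bound RNA, at 11.95 and 12.22. Josd2, a deubiquitinase, rose 34.6-fold, Ostf1, an SH3 adaptor, 36.1-fold, and Lims2, a focal adhesion protein, 36.1-fold. Lims2 was low in astrocyte bound RNA, with a mean of 3.42, and its lowest total array was replicate 5, at 7.19.

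Signalling genes were less uniform. Of 14 Notch genes measured 10 were tested, of which 6 rose and 0 fell. Hes5, a repressor that Notch switches on, read 10.98, 10.60 and 10.34 in Olig2 bound RNA, against 7.0, 6.92, 6.92, 6.98 and 6.99 in cortex total RNA (12.8-fold, adjusted p = 1.51e-09). The ligand Dll3 rose at least 4.92-fold, the ligand Dll1 at least 3.53-fold and the feedback inhibitor Nrarp 3.28-fold. The groups did not overlap in these 4 genes. The targets Hey2 and Hes1 rose as well, 3.09-fold and 2.53-fold, while the target Hey1, the receptors Notch1 and Notch2 and the nuclear partner Rbpj were not called. Notch1 stood near the dim limit in both groups, at 5.32 to 5.33 in Olig2 bound RNA and 5.27 to 5.82 in cortex total RNA. Of 20 growth factor and cytokine receptors 12 were too dim to test, and of the 8 tested 2 rose and 2 fell. Ddr1, a collagen receptor, rose at least 10.6-fold and Fgfr2 2.53-fold, while Igf1r, the IGF receptor, fell at least 4.32-fold and Ntrk2, the BDNF receptor, 3.22-fold. Among 13 BMP and Id genes 4 rose and 1 fell: Id3, an inhibitor of basic helix-loop-helix factors, rose 5.86-fold, Smad7, an inhibitor of the pathway, 3.10-fold, Smad5 at least 2.69-fold and Id1 at least 2.11-fold, and the receptor Bmpr2 fell at least 7.92-fold. Of 9 Wnt genes 2 rose, Nkd1 at least 7.77-fold and Fzd9 at least 2.61-fold, and 2 fell, Dkk3 12.3-fold and Axin2 at least 2.43-fold. Over all genes tested 22.3% rose and 20.8% fell, so the receptor and Wnt counts were near that background. Id1 was lost as a call on the deposited and the spike-in scale, and Fgfr2 on the spike-in scale. The Notch list summed to 12720 to 14310 in astrocyte bound RNA, against 6814 to 7340 in Olig2 bound RNA. For the BMP and Id list these sums were 47120 to 49980 and 11570 to 14150.

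Guidance genes fell more often than they rose, 7 against 3 of 17 tested, beside 20.8% and 22.3% of all genes tested. Of the 17, 5 were dim in both groups and could not be called. Epha4, an ephrin receptor, read 3.98, 3.99 and 3.97 in Olig2 bound RNA, against 10.57, 10.28, 10.74, 10.45 and 10.63 in cortex total RNA, at least 29.6-fold lower (adjusted p = 1.17e-15). Slit2, a repellent, fell 9.73-fold, the semaphorin receptor Plxna2 at least 8.06-fold and Nrp1 at least 4.87-fold. The netrin receptor Unc5b rose at least 7.39-fold, Sema5a at least 2.87-fold and Ephb1 2.10-fold. Unc5b was thus the guidance receptor with the clearest rise, with 8.55, 8.52 and 8.52 in Olig2 bound RNA and 4.53 to 4.83 in cortex total RNA, and Ephb1 was lost as a call on the deposited scale (difference 0.83) and the spike-in scale (0.66). Against cortex total replicate 5 alone Ephb1 differed by 1.09 (adjusted p = 0.154, limma).

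Part of the cell cycle genes rose, several of them from dim levels in cortex total RNA. Of 15 mitosis genes tested 7 rose and 0 fell, and of 16 DNA replication genes 8 rose and 1 fell. Cdk1, the mitotic kinase, read 7.20, 7.16 and 7.17 in Olig2 bound RNA, against 2.27, 2.27, 2.28, 2.28 and 2.29 in cortex total RNA (at least 2.90-fold, adjusted p = 1.25e-07). Cdc20, an activator of the anaphase complex, rose 4.55-fold and Cenpa, the centromere histone, 3.93-fold, the only 2 of the 7 above the dim limit in cortex total RNA. Rrm2, which supplies deoxynucleotides, read 9.69, 9.51 and 9.50 in Olig2 bound RNA against 4.78 to 5.12 in cortex total RNA, at least 15.1-fold higher. Mcm6, a subunit of the replicative helicase, rose 9.78-fold, and Prim1, a primase, 7.56-fold. No groups overlapped in these 6 genes. The linear signals of the mitosis list summed to 1762 to 1890 in Olig2 bound RNA and 249 to 347 in cortex total RNA, and of the 15 genes 7 were dim in both groups. Under the deposited and the spike-in scale 4 mitosis genes rose, in place of 7. Among inhibitors and D cyclins 6 of 10 rose and 2 fell. Cdkn2c rose at least 14.8-fold, Ccnd3 8.29-fold, Gas1 8.14-fold and Ccnd1 7.30-fold, while Cdkn1a fell at least 3.86-fold and Ccnd2 2.81-fold. Mki67 and Pcna were not analysed here.

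Most genes of each neuron list fell. Of 15 glutamatergic genes 14 fell and 0 rose, of 18 genes of vesicle release 17 fell, and of 12 voltage-gated channel genes all 12 fell, beside 20.8% of all genes tested. Tbr1, a factor of deep layer projection neurons, read 5.50, 5.50 and 5.49 in Olig2 bound RNA, against 10.96, 11.18, 10.81, 10.47 and 11.51 in cortex total RNA, at least 40.5-fold lower (adjusted p = 1.34e-09). Neurod6, a factor of the same neurons, fell at least 35.7-fold, and Gria2, an AMPA receptor subunit, 20.9-fold. Both groups were tight in Scn2a, a sodium channel of axons, with 4.21, 4.25 and 4.37 in Olig2 bound RNA against 10.35 to 10.78 in cortex total RNA, at least 29-fold lower. Dlg4 was the 1 glutamatergic gene that was not called, and was dim on all 8 arrays.

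Vesicle genes fell to different levels, and 4 of the 18 were dim in Olig2 bound RNA. Snap25, a fusion protein of synaptic vesicles, read 12.32, 12.87 and 13.29 in Olig2 bound RNA, against 15.26, 15.10, 15.22, 15.22 and 15.26 in cortex total RNA (5.24-fold lower, adjusted p = 2.94e-08). Stx1a fell 17.5-fold, Sv2b 19.3-fold, Syt4 17.7-fold and Vamp1 at least 26.8-fold. All bound arrays of these 5 genes lay below all total arrays, and Sv2a, at 10.81 to 11.10 in Olig2 bound RNA and 11.45 to 12.51 in cortex total RNA, was the 1 of 18 that was not called. Among 17 genes of the neuronal cytoskeleton 14 fell. Sptan1, the alpha spectrin, fell 43.8-fold and Nefl, the light neurofilament, 31.5-fold, while Mapt and Dpysl2, at -0.11 and 0.13, and Ank3, at -0.62, were not called. Mapt read 10.03 to 10.06 in Olig2 bound RNA and 10.01 to 10.68 in cortex total RNA. The summed signal of the vesicle list was 15480 to 19870 in Olig2 bound RNA and 105800 to 123600 in cortex total RNA, beside 5119 to 10310 in astrocyte bound RNA.

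Genes of inhibitory neurons and peptides fell too. Of 9 GABAergic genes 7 fell and 1 rose, and of 16 neuropeptide and granule genes 13 fell and 0 rose. Calb1, a calcium buffer, fell 26.6-fold, with 7.98, 7.97 and 8.70 in Olig2 bound RNA against 12.61 to 13.11 in cortex total RNA. Reln fell 13.2-fold, Slc32a1, the vesicular GABA transporter, 12.3-fold and the calcium buffer Pvalb 11.8-fold. Maf, dim in both groups, was not called. Calb2, a calcium buffer of another class of interneuron, was the 1 that rose, with 8.18, 9.36 and 8.44 in Olig2 bound RNA against 7.27, 7.19, 6.64, 6.86 and 8.45 in cortex total RNA (2.60-fold, adjusted p = 0.0429). The groups overlapped in Calb2 through total replicate 5, and the call was lost on the deposited and spike-in scales and without single arrays. Vip, a peptide of interneurons, fell 33-fold, Chgb, a granule protein, 24.1-fold, Scg2 15.1-fold and Vgf 14-fold. Cpe, a granule enzyme, Scg3 and Pdyn were not called. Cpe and Scg3 had means of 15.39 and 13.48 in astrocyte bound RNA, and Pdyn was dim in Olig2 bound RNA and near the limit in cortex total RNA, at 5.61 to 6.17.

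Other large falls included Wipf3, an actin regulator, which read 5.95, 5.98 and 5.94 in Olig2 bound RNA, against 11.75, 11.97, 11.89, 11.83 and 11.85 in cortex total RNA (59.7-fold lower, adjusted p = 2.4e-12). Rgs17, which quenches G protein signals, fell 49.7-fold, Celf4, an RNA binding protein, 47.6-fold and Gda, guanine deaminase, 45-fold. In Rgs17 and Celf4 bound replicate 3 was the highest of its group, at 6.96 and 8.28, and still far under the total arrays. Slc4a10, a bicarbonate transporter, fell 43.5-fold and likewise had its highest bound array in replicate 3, at 7.70 against 6.23 and 6.41 in replicates 1 and 2. Itpka and Ppp1r9a, proteins of dendritic spines, fell 39.9-fold and 37.1-fold. Olfm3, Fam81a and Gabra4, a GABA receptor subunit, fell 34.2-fold, 33.7-fold and 33.2-fold.

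**Figure D3:**
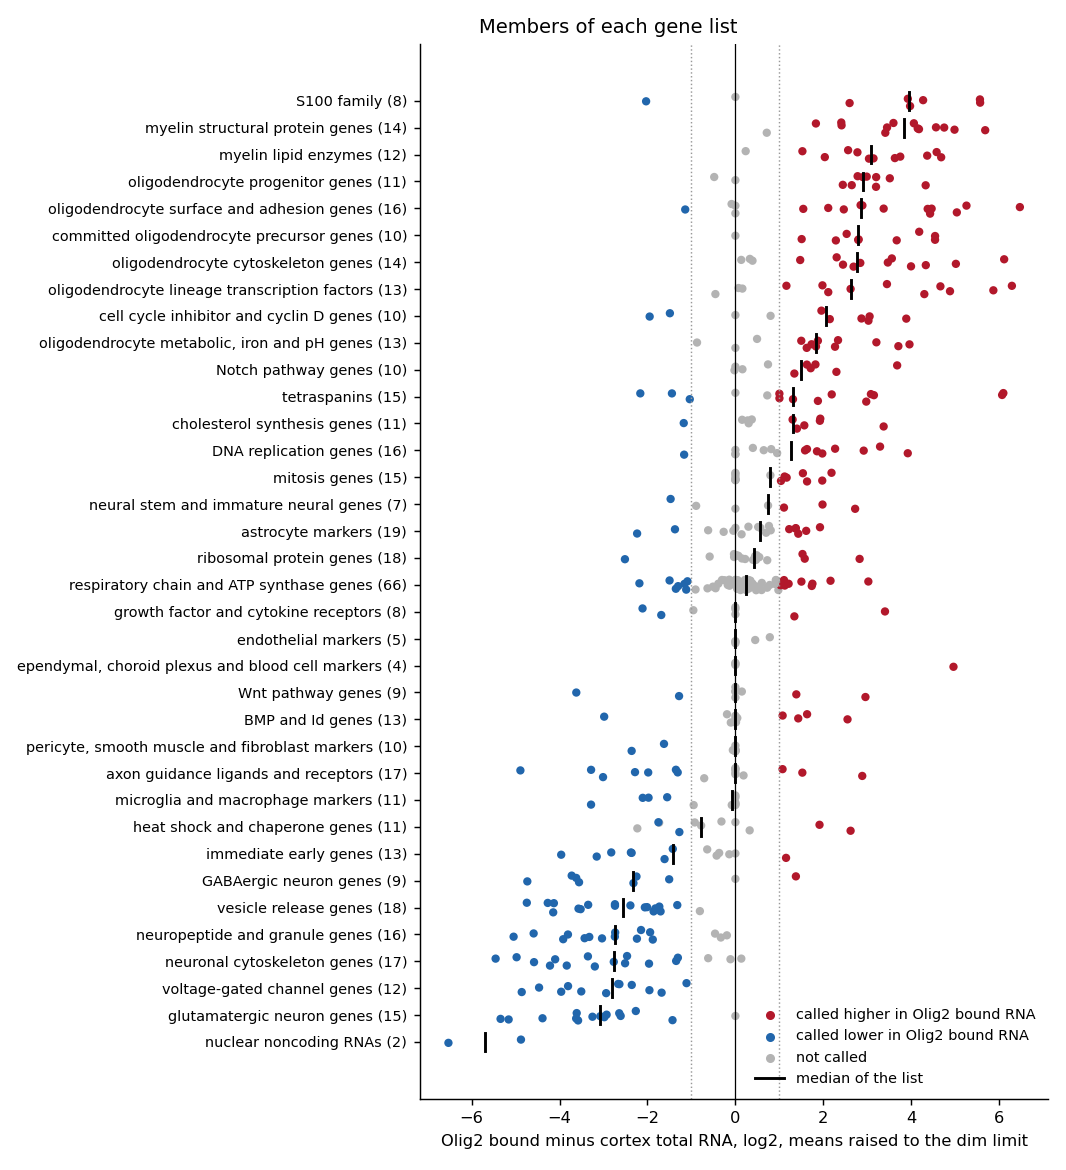
Difference between Olig2 bound and cortex total RNA (horizontal, log2, means raised to the dim limit) for each tested member of 36 gene lists. Red points were called higher, blue points lower and grey points were not called, and black bars are list medians. Lineage lists lie to the right and neuron lists to the left; the respiratory chain list, with 12 higher and 7 lower here, had 6 higher and 8 lower under spike-in scaling.

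Noncoding RNAs of the nucleus and genes of acute activity also fell. Meg3, a nuclear noncoding RNA that is not translated, read 3.61, 3.33 and 3.29 in Olig2 bound RNA, against 12.12, 12.14, 12.74, 12.30 and 11.55 in cortex total RNA, at least 92.2-fold lower (adjusted p = 1.88e-23). Snhg11 fell at least 29.4-fold. Both were dim on average in Cnp, Pdgfra, astrocyte and neuron bound RNA as well, where the means of Meg3 were 4.92, 5.22, 2.70 and 4.09. Malat1 and Neat1 were not analysed here. Of 13 immediate early genes 7 fell and 1, Jun, rose (2.22-fold). Egr2 fell 15.6-fold, Arc 8.90-fold and Fos 7.08-fold. In Egr2 the bound arrays were close, between 7.20 and 7.34 (SD 0.07), and the total arrays spread (SD 0.962), with replicate 2 highest at 12.26. Against cortex total replicate 5 alone 5 fell and 0 rose: Arc differed by -2.60 (adjusted p = 0.0732), Fos by -2.02 (adjusted p = 0.117) and Jun by 0.85 (adjusted p = 0.127) in that limma fit. Jun differed by 0.85 under spike-in scaling too, where it was not called. Of 11 heat shock and chaperone genes 2 rose, among them Cryab, which oligodendrocytes and astrocytes hold, 6.15-fold, and Hspb8 3.77-fold, and 2 fell, Hsph1 3.37-fold and Hspa5 2.42-fold. Under spike-in scaling 5 of them fell. In the main fit, 2 of 11 each way was near the share of all genes tested, 22.3% higher and 20.8% lower.

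Markers of other cells were measured beside these results. Of 19 astrocyte markers tested 6 rose and 2 fell, beside 22.3% and 20.8% of all genes, and under spike-in scaling 3 rose and 2 fell. Ndrg2 rose 3.79-fold, Slc7a10 at least 3.05-fold, Atp1b2 2.69-fold and Gpc5 2.59-fold, and Slc4a4 fell 4.71-fold and Sox9 2.59-fold. Atp1b2 lost its call under spike-in scaling (0.96). Against cortex total replicate 5 alone 4 rose and 1 fell, with Slc7a10 at 1.45 (adjusted p = 0.151, limma) and Sox9 at -0.79 not called. Aldh1l1 read 9.05, 9.0 and 9.0 in Olig2 bound RNA and 8.0 to 8.55 in cortex total RNA, a difference of 0.76 ± 0.40 (SE, adjusted p = 0.0804). Gja1 and Slc1a3, an astrocyte connexin and glutamate transporter, differed by -0.27 and 0.14. The summed signal of the astrocyte list was 62670 to 68580 in Olig2 bound RNA and 47420 to 56860 in cortex total RNA, beside 194400 to 216600 in astrocyte bound RNA, 18590 to 29120 in Cnp bound RNA and 26350 to 35810 in Pdgfra bound RNA. Its level in Olig2 bound RNA thus lay above both single stages and under astrocyte bound RNA, and the part of astrocyte messages in the other results was not tested. Gfap was not analysed here.

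Microglia markers fell or were dim. Of 11 tested 4 fell and 0 rose: Ctss, a lysosomal protease, read 7.25, 7.04 and 6.93 in Olig2 bound RNA against 9.73 to 10.93 in cortex total RNA (9.73-fold lower), and Tyrobp, Csf1r and C1qb fell at least 4.31-fold, 3.93-fold and 2.93-fold. Their summed signal was 174 to 205 in Olig2 bound RNA and 1553 to 2943 in cortex total RNA. Of the 11, 10 were dim in Olig2 bound RNA and 5 in both groups, where no call is possible. Of 13 endothelial markers measured 8 were too dim to test. Of the 5 tested 0 rose and 0 fell, beside 22.3% and 20.8% of all genes, and 3 of the 5 were dim in both groups and could not be called. Their sums were 912 to 1150 in Olig2 bound RNA and 528 to 780 in cortex total RNA. Of 10 markers of pericytes, smooth muscle and fibroblasts Acta2 and Dcn fell, and 7 were dim in both groups. Ttr, made by the choroid plexus, which is not cortex, read 11.04, 10.97 and 10.89 in Olig2 bound RNA, against 4.54, 4.21, 12, 4.85 and 4.43 in cortex total RNA. The third total array was thus as high as the bound arrays, the groups overlapped, and the call (adjusted p = 0.0268) was lost in several alternatives. Genes of neural stem and immature cells were mixed: of 7 tested Fabp7, a lipid carrier of radial glia and progenitors, rose 6.60-fold, Sox2 3.95-fold and Marcksl1 2.15-fold, and Cd24a fell 2.78-fold. Marcksl1 was not called under spike-in scaling (0.93), where 2 rose and 2 fell, or against cortex total replicate 5 alone (0.92).

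**Figure D4:**
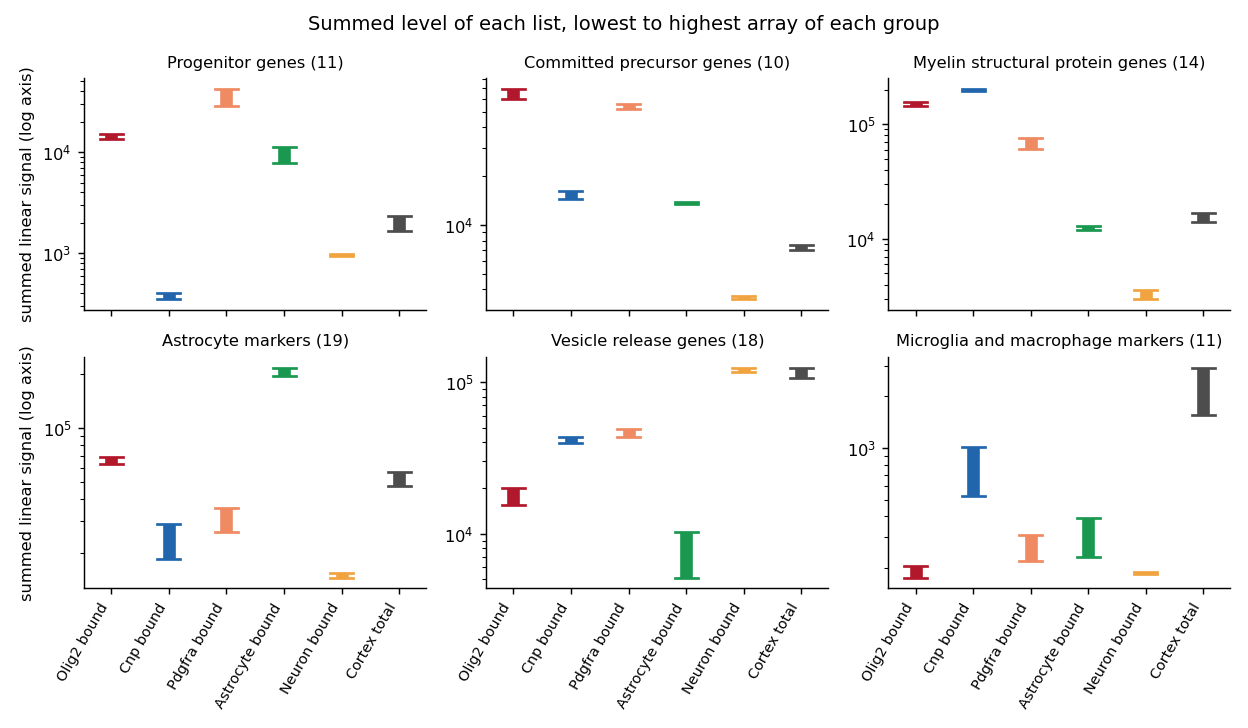
Summed linear signal of 6 gene lists in 6 groups (log axis), each bar running from the lowest to the highest array of a group. Olig2 bound RNA has more signal of the oligodendrocyte lists and less of the vesicle release and microglia lists than cortex total RNA, and its astrocyte sum, 62670 to 68580, lies above that of Cnp and Pdgfra bound RNA.

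Genes of the ribosome and of mitochondria, most of them used by every cell, were called less uniformly. Of 18 genes tested with ribosomal protein symbols 3 rose and 1 fell, with a median of 0.43. The list holds like-named relatives such as Rps27l, Rpl7l1 and Rps4l, so 2 of the 3 rises were of such relatives. Rps27l rose 7.09-fold and Rpl7l1 2.88-fold, and Rps15a fell 5.71-fold. Rps9 rose 2.98-fold against the 5 total arrays, with 13.30, 13.56 and 13.16 in Olig2 bound RNA against 11.51, 11.06, 11.51, 11.44 and 13.30 in cortex total RNA. Total replicate 5 was as high as the bound arrays in Rps9, and against it alone the difference was 0.04. Of 66 genes of the respiratory chain and ATP synthase 12 rose and 7 fell, with a median of 0.25. Over all genes tested 22.3% rose and 20.8% fell. Ndufa7, a subunit of complex I, rose 8.13-fold, with 11.08, 10.41 and 10.02 in Olig2 bound RNA against 7.0, 8.0, 7.04, 7.24 and 8.13 in cortex total RNA, and Ndufb11 rose 4.48-fold. Cox6a2, a cytochrome oxidase subunit, fell at least 4.54-fold and Ndufa10 2.56-fold. The split of the list followed the scale: 10 rose and 7 fell on the deposited scale, 16 and 5 after centring on the median, 6 and 8 under spike-in scaling, and 5 and 8 against cortex total replicate 5 alone.

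The Olig2 group was then set against Cnp bound RNA, to see which stages it held beyond mature cells. Of 9799 genes 1309 (13.4%) were higher and 1392 (14.2%) lower in Olig2 bound RNA, 27.6% in all. That balance depended on the scale, with 804 higher and 2644 lower on the deposited scale and 647 higher and 3386 lower under spike-in scaling. Progenitor genes were higher in 10 of 11 tested cases on each of these scales. Rlbp1 read 12.55, 12.45 and 12.40 in Olig2 bound RNA against 6.21, 6.21 and 6.94 in Cnp bound RNA (64.7-fold, adjusted p = 4.29e-11). Gpr17 was 61.8-fold higher, with 7.29, 7.29 and 7.74 in Cnp bound RNA, and Lhfpl3 at least 35.1-fold. Notch genes were higher in 7 of 10 cases, among them Hes5 at least 31.9-fold and Nrarp 25.9-fold, and in 6 cases, with 1 lower, on the deposited and spike-in scales. The summed signal of the Notch list was higher still in astrocyte bound RNA, 12720 to 14310 against 6814 to 7340 in Olig2 bound RNA. Of 19 astrocyte markers 14 were higher and 0 lower, with Gjb6 8.11-fold and Aldh1l1 2.47-fold higher, and 12 were higher on the deposited and 9 under the spike-in scale. Other genes far above Cnp bound RNA were Tmem176b (64.3-fold), Rgcc (60.9-fold), Timp4 (58.4-fold) and Scrg1 (53.2-fold). Their means in astrocyte bound RNA were 12.36, 13.24, 13.70 and 12.31.

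Mature genes were close to Cnp bound RNA or below it. Of 14 myelin protein genes 0 were higher and 3 lower, Gjc3 3.22-fold, Gjb1 2.97-fold and Omg 2.13-fold, while Mobp read 11.36, 11.33 and 11.29 in Olig2 bound RNA and 11.32, 11.35 and 11.29 in Cnp bound RNA. On the deposited and the spike-in scale 7 were lower. The groups overlapped in Mobp. Of 12 myelin lipid enzymes 4 were lower and 0 higher, and 10 on the deposited and spike-in scales; Aspa, which splits acetylaspartate, was 4.62-fold lower. Of 16 surface genes 8 were lower and 1 higher, and 11 lower and 0 higher on those 2 scales. Cntn2, a contactin of nodes, was dim in Olig2 bound RNA and at least 5.74-fold lower, and Mcam was 3.96-fold lower. Slc16a1, the lactate transporter, was at least 16-fold lower. Rasgrp3, a Ras activator, had the largest difference downward among genes above the dim limit in both groups, with 6.06, 6.09 and 6.30 in Olig2 bound RNA against 11.39, 11.43 and 10.82 in Cnp bound RNA (33.4-fold, adjusted p = 7.14e-13). Il33, an alarm cytokine of mature oligodendrocytes, was 21.2-fold lower, with 9.90, 9.76 and 10.41 in Olig2 bound RNA and 14.46, 14.55 and 14.29 in Cnp bound RNA. That no Olig2 array reached a Cnp array was a condition for naming either gene. Xaf1 was 18.9-fold, Slc24a2 14.5-fold, Smco3 14.1-fold and Edil3 12.7-fold lower. Respiratory chain genes, with 20 of 66 higher and 3 lower here, were 3 higher and 9 lower under spike-in scaling.

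Against Pdgfra bound RNA 1300 (13.3%) genes were higher and 1321 (13.5%) lower, 26.7% in all. Under spike-in scaling 847 were higher. In Pdgfra bound RNA the actin probes at the 3′ end exceeded those at the 5′ end by 6.76, 6.74 and 5.93. In Olig2 bound RNA they did so by 2.95, 2.45 and 2.68, and the part of RNA quality in this comparison was not tested. Pdgfra itself was 2.84-fold lower, with 8.79, 8.77 and 8.96 in Olig2 bound RNA and a mean of 10.35 in Pdgfra bound RNA (adjusted p = 0.0106). Of 11 progenitor genes 4 were lower and 0 higher, the others being Lhfpl3 (4.12-fold), Ptprz1 (2.59-fold) and Rlbp1 (2.47-fold), while Olig2 differed by 0.18 (adjusted p = 0.725). Of 14 myelin protein genes 9 were higher and 0 lower. Mobp was 27.5-fold higher, with 6.57, 6.49 and 6.57 in Pdgfra bound RNA, Mog 5.90-fold, Cldn11 4.12-fold and Gjb1 at least 5.33-fold. Cytoskeleton genes were higher in 11 of 14 cases, with Tppp3 13.8-fold and Bin1 11.8-fold higher. Cholesterol genes were higher in 8 of 11. Of 19 astrocyte markers 10 were higher and 1, Gpc5, was lower, with Mlc1 at least 28.8-fold and Gjb6 11.8-fold higher.

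**Figure D5:**
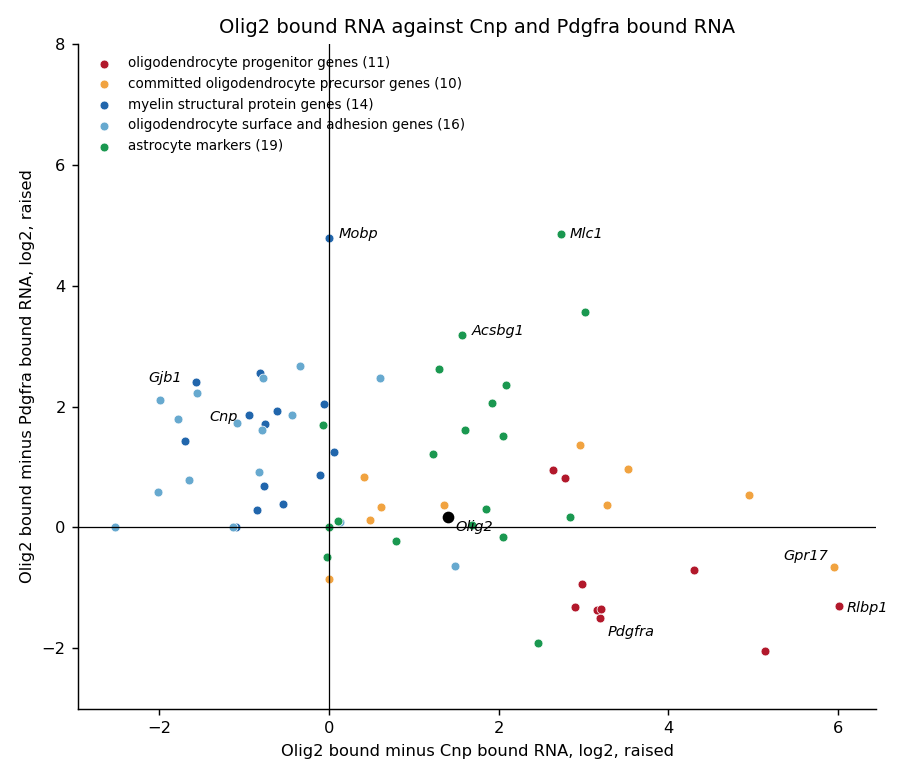
Difference of Olig2 bound RNA from Cnp bound RNA (horizontal) and from Pdgfra bound RNA (vertical), log2, means raised to the dim limit, for tested members of 5 lists. Most progenitor genes lie to the right and under the horizontal zero line, with C1ql1 and Sapcd2 above it, most myelin genes to the left or at zero and above it, and most astrocyte markers to the right and above. The horizontal position depends on the scale: on the deposited scale 7 myelin protein genes, in place of 3, were lower than in Cnp bound RNA.

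Single genes far above Pdgfra bound RNA were not all of myelin. Gamt, which makes creatine, read 11.04, 11.04 and 10.86 in Olig2 bound RNA against 6.43, 4.88 and 6.38 in Pdgfra bound RNA (33.9-fold, adjusted p = 3.16e-05). Ntsr2, a neurotensin receptor with a mean of 14.16 in astrocyte bound RNA, was 31.7-fold higher, and Cmtm5, a membrane protein, 23.2-fold. Tnni1, a troponin subunit, was 22.4-fold higher and the metallothionein Mt2, which had a mean of 15.14 in astrocyte bound RNA, 20-fold. Lower were Slc4a10 (17.8-fold), Pnmal2 (14.2-fold), Arhgap20 (11.8-fold), Sowahc (11.6-fold), Pcdhb9 (10.7-fold) and Rgs17 (10.2-fold). Of these 6, Sowahc read 8.44, 8.06 and 6.06 in Olig2 bound RNA against 11.07, 10.97 and 11.12 in Pdgfra bound RNA, again with replicate 3 below its group.

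Of 9799 genes tested, 2185 were higher in Olig2 bound than in cortex total RNA. Of these, 313 were also higher than in Cnp bound and Pdgfra bound RNA. The 313 were counted on the main scale only. Genes higher than in Cnp bound RNA numbered 1309 there, and 804, 647 and 1370 on the deposited, spike-in and median-centred scales. For Pdgfra bound RNA these were 1300, and 1153, 847 and 1478. The mean of astrocyte bound RNA was above that of Olig2 bound RNA for 168 of the 313 and under it by more than 1 for 65. Both the astrocyte and the neuron mean were lower by more than 1 in 47, a count that left out clone symbols (ending in Rik, or Gm with a number). Cd82, a tetraspanin, read 12.01, 11.85 and 11.27 in Olig2 bound RNA, with means of 10.35 in Cnp bound RNA, 8.39 in Pdgfra bound RNA and 6.25 in astrocyte bound RNA. Cnksr3 was 7.80-fold above Cnp bound and 2.56-fold above Pdgfra bound RNA, and Pak4, a kinase of the actin cytoskeleton, 9.20-fold and 2.40-fold. Orai1, a calcium channel subunit, was at least 13.2-fold above Cnp bound RNA and 3.08-fold above Pdgfra bound RNA, though its bound arrays were spread, at 10.01, 9.36 and 8.73. The 3 Olig2 arrays were otherwise close, with a median SD over genes of 0.133, against 0.157 in cortex total RNA, and in 32 called genes their SD was over 1. Of these Mex3d read 8.41, 8.0 and 4.74, Arf5 8.58, 7.89 and 4.95 and Srsf9 12.33, 12.28 and 10.09, each with bound replicate 3 apart. Pak4, Orai1, Mex3d, Arf5 and Srsf9 were named after their values were seen.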

How the data were processed

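RNA was measured on 38 Affymetrix arrays in 12 groups. GCRMA is named in the submitters' processing notes, and the authors deposited its log2 signals for custom probe sets of 1 gene each. Within each group all arrays have the same lowest value, which differs between groups, so scales may differ between groups. The log2 signals were quantile normalized over all 38 arrays (16395 probe sets, 15644 of them with a gene; 15617 symbols were matched to RefSeq). Genes above log2 50 (5.64) in at least 3 arrays, 9799 in all, entered a 12-group model (limma 3.58.1, R 4.3.3) with 26 residual degrees of freedom, Benjamini-Hochberg adjustment and a call at an adjusted p under 0.05 and a 2-fold difference of means raised to log2 50. Only a few arrays per group limit the precision. The test was checked on simulated data. Motifs and tables used Python 3.11.15 with pandas 2.3.3, and plots matplotlib 3.10.9.

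The 36 gene lists and the genes in them were chosen with earlier results of these data known. The text names Olig2, Cnp and Pdgfra, the 12 largest rises and falls against cortex total RNA and the 6 against each other bound RNA (called, groups apart, both means above the limit), and from each list up to 4 called members per direction; other list members named were chosen after their values were seen. Same-numbered arrays of the 2 groups had correlations of deviations of -0.0188, 0.0587 and 0.214, so replicate numbers were not used as pairs. Alternatives were the deposited, median-centred and spike-in scales (18 spike-in probe sets), filters, dim limits, a 2-group fit, the prior, a replicate block and leaving out arrays. Cortex total replicate 5 alone as the reference was added after seeing the data.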

Additional observations from a re-analysis of the deposited data

Results flagged for a closer look

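In 25 of 141 named genes tested, 1 of the 5 cortex total arrays lay far from the other 4, by a gap that was over 0.71 of the range of the group. For independent groups of 5 normal values chance gives about 1 in 20. The 141 genes share the same 5 arrays and were mostly named by their results, so their count cannot be set against that rate. Replicate 5 was the distant array in 13 of the 25, and replicates 1 to 4 in 2, 3, 5 and 2. In replicate 5, signals stood high for Cd24a (7.80 against 7.14 to 7.33 in the other 4), Cd9 (6.66 against 5.49 to 5.80), Nefm (11.82 against 11 to 11.12), Rps9 (13.30 against 11.06 to 11.51), S100a1 (8.15 against 7.34 to 7.51) and Uqcrh (12.31 against 11.32 to 11.40). They stood low there for Elovl1 (7.65 against 8.35 to 8.52), Fgfr2 (6.12 against 6.84 to 6.98), Lims2 (7.19 against 8.02 to 8.22), Mag (7.19 against 7.71 to 7.82), Ndufa10 (13.44 against 13.77 to 13.88), Rpl7l1 (8.34 against 8.60 to 8.67) and Septin8 (7.61 against 7.82 to 7.87). This array also had the smallest 3′ to 5′ difference of actin of the 5, 2.80 against 4.70 to 5.32; its part in these values was not tested.

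The other distant arrays were spread over replicates 1 to 4. Replicate 3 was high for Ttr (12 against 4.21 to 4.85), Atp5g1 (7.88 against 6.87 to 7.07), Kcnc2 (10.95 against 10.70 to 10.75) and Scn1a (10.33 against 10.01 to 10.10), and low for Mdk (5.57 against 5.80 to 5.88). Replicate 1 was low for Bmp4 (6.14 against 6.44 to 6.52) and high for Nefl (13.19 against 12.82 to 12.93). Replicate 2 was low for Cnksr3 (8.10 against 8.44 to 8.52), Efnb3 (6.84 against 7.19 to 7.32) and Slc4a10 (11.80 against 12.24 to 12.42). Replicate 4 was high for C1qb (7.76 against 6.96 to 7.10) and Pllp (7.65 against 7.0 to 7.12).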

How the results depend on the processing

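No gene named by rule changed its direction under any alternative run, although the split of the respiratory chain list did, as given above. Against cortex total RNA 4226 genes were called, and 4062 on the deposited scale, 4272 with arrays centred on their median, 4175 under spike-in scaling, 3449 with a dim limit of log2 100, 4220 with no filter on dim genes and 5498 with means not raised to log2 50. Of the 4226 calls 3813, 4097 and 3601 were kept on the first 3 scales. The share of higher among called genes, 51.7%, was 43.7%, 54% and 37.4% on those scales, which moved the median difference of 0.07 to -0.06, 0.22 and -0.23. Leaving out 1 array at a time gave 4168 to 4292 calls against cortex total, 2592 to 2799 against Cnp bound and 2471 to 2757 against Pdgfra bound RNA. Against Cnp bound RNA, 804 genes were higher and 2644 lower on the deposited scale and 647 higher and 3386 lower under spike-in scaling, which moved the share of higher from 48.5% to 23.3% and 16%. Against Pdgfra bound RNA 847 were higher under spike-in scaling (35.1%, in place of 49.6%). The cause was not tested. With a replicate block, which has no pairing behind it, 4245 genes were called, 4161 of them shared with the 4226, and Cntn1 (-0.96), Tspan13 (-0.94) and Ttr (adjusted p = 0.0583, limma) were no longer called. Calb2 lost its call without single arrays (adjusted p 0.0587 to 0.19), as did Ttr (0.0524 to 0.0603), Tspan13 without cortex total replicate 5 (-0.99) and Dut without Olig2 replicate 3 (-0.87). Cntn1 (-0.88) and Tspan13 (-0.85) also lost theirs with arrays centred on their median, and Fgfr2 (0.84), Atp1b2 (0.96), Marcksl1 (0.93) and Jun (0.85), with Id1, Ephb1 and Calb2, under spike-in scaling. With cortex total replicate 5 alone, 14 named genes lost their call: Hsd17b7, Ephb1, Calb2, Slc7a10, Sox9, Acta2, Ttr, Marcksl1, Cenpa, Jun, Arc, Fos, Rps9 and Uqcrh. Signals near background limit what can be said of dim genes: 2396 of the 9799 genes were dim in Olig2 bound RNA, 2412 in cortex total RNA and 1430 in both.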
